A study of Mus musculus with 24 samples.

Results

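The growth hormone and STAT5 genes described here are the receptor gene Ghr, the transcription factor genes Stat5a and Stat5b, the feedback and repressor genes Socs2, Cish and Bcl6, the circulating outputs Igf1 and Igfals, and the sex-biased liver genes Elovl3 and Susd4. They were taken by name, from a list chosen with earlier results of these data known: each was the row of the count matrix whose gene identifier belongs to that symbol in the mouse GENCODE annotation. All 10 were found among 53677 gene identifiers, and all 10 were among the 14533 genes with enough counts to be tested. The samples were total liver RNA, depleted of ribosomal RNA and sequenced as strand-specific libraries, in 24 mice of 4 groups. These were 129S1/SvImJ mice fed a high-fat diet (n = 6), 129S1/SvImJ mice fed chow (n = 5), C57BL/6J mice fed a high-fat diet (n = 7) and C57BL/6J mice fed chow (n = 6). Both are inbred strains, the labels name no engineered allele in any group, and they give a separate mouse for each library. The labels used here give neither the sex and age of the mice nor the composition and length of the diets, nor the time of day at which livers were taken. The series was made for a study of how genotype relates to binding of TCF7L2 and to open chromatin in liver, so the growth hormone pathway was not its stated subject.

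Growth hormone reaches the liver from the pituitary in pulses. It binds the growth hormone receptor, which activates the kinase JAK2, and JAK2 phosphorylates STAT5A and STAT5B, which move to the nucleus and bind DNA. STAT5 induces the circulating growth factor gene Igf1 and its carrier Igfals, and it induces Socs2 and Cish, whose proteins damp the receptor. In rodents the pulse pattern differs between males and females, and many genes expressed differently in male and female liver depend on it, with BCL6 acting as a repressor that competes with STAT5 at part of its sites.

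Library totals were 6707013 to 13035534 counts in 129S1/SvImJ mice on high-fat diet, 7607255 to 9184270 in 129S1/SvImJ mice on chow, 8294723 to 13124881 in C57BL/6J mice on high-fat diet and 10162138 to 12826048 in C57BL/6J mice on chow. Each of the 10 genes had at least 36 counts in every library. The hepatocyte markers were counted in every library at a summed 52879 to 88480 CPM (counts scaled to a common library size), so the defining genes of the labelled tissue were present throughout. Xist had 0 to 8 counts per library, and each of 4 Y-linked genes had 178 to 1693 counts in every library. All 3 fat-cell genes Adipoq, Lep and Plin1 were counted in 2 libraries, replicate 1 of 129S1/SvImJ on chow and replicate 5 of C57BL/6J on high-fat diet. In bulk liver, fewer cells of a type and less RNA per cell cannot be told apart.

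STAT5 dimers bind a short palindrome, and the sequences are shown for 3 genes whose promoters carry it and whose values recur below. The motif searched was TTCNNNGAA, which reads the same on both strands. The windows were RefSeq promoter windows of build GRCm38.p6, cut to 250 bases before and 30 bases after the annotated start. RefSeq entries were at hand for 8 of the 10 genes, giving 15 windows. Of these, 5 windows from 3 genes held the motif, namely Cish, Bcl6 and Igfals, against 7.83% of 32851 windows of the same length over all genes. The Cish window held 2 copies, at base 1 and base 12 counted from the start, and one Bcl6 window held 3, at bases -168, -122 and -88. Over all genes 0.408% of windows held 2 or more copies and 10 windows held 3 or more. Capitals mark the motif copies, all sequences run 5′ to 3′ on the strand of the gene, and they are C57BL/6J reference sequence, so alleles of 129S1/SvImJ were not read. The Cish stretch is chr9:107296654-107296683 on the plus strand, cut to 30 bases because GENCODE places the window inside a first exon. The Bcl6 stretch is chr16:23981254-23981533 on the minus strand, at a start inside the gene, and the Igfals stretch is chr17:24877981-24878214 on the plus strand, which ends before the exon and holds 1 copy at base -58.
Cish: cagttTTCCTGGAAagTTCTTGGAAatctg
Bcl6: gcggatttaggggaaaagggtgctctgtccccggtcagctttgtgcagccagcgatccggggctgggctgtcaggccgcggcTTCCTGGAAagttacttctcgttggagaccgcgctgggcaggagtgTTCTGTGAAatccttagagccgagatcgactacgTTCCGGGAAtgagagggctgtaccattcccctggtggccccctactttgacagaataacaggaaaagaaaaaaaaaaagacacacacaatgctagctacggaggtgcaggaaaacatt
Igfals: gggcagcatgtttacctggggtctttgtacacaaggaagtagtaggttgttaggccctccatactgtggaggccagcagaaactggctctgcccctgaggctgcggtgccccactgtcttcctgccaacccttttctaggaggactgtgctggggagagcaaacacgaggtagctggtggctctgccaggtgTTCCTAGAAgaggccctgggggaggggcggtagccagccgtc
A motif copy is a match of letters and was not tested as a binding site.

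Per kilobase of exon, the receptor and the secreted growth factor were the most abundant transcripts of the 10, and Socs2 and Stat5a the least abundant. On the RPKM scale, which divides counts by depth and by exon length, the mean over all 24 mice was 97.7 for Ghr, 85.8 for Igf1, 52.1 for Elovl3 and 34.7 for Igfals. It was 15.2 for Stat5b, 10.8 for Susd4, 6.96 for Bcl6, 5.49 for Cish, 3.25 for Stat5a and 2.58 for Socs2. Many of these ranges overlap between neighbours: single mice ran between 68.8 and 132 for Ghr and between 58.8 and 112.7 for Igf1, and between 0.605 and 14.3 for Cish and between 2.19 and 4.45 for Stat5a. The RPKM levels of Stat5b and Stat5a did not overlap, with 12.6 in the lowest mouse for Stat5b and 4.45 in the highest mouse for Stat5a. Stat5a and Stat5b lie side by side on chromosome 11 and are close paralogs, so reads of identical stretches may have been split between them or lost.

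**Figure D1:**
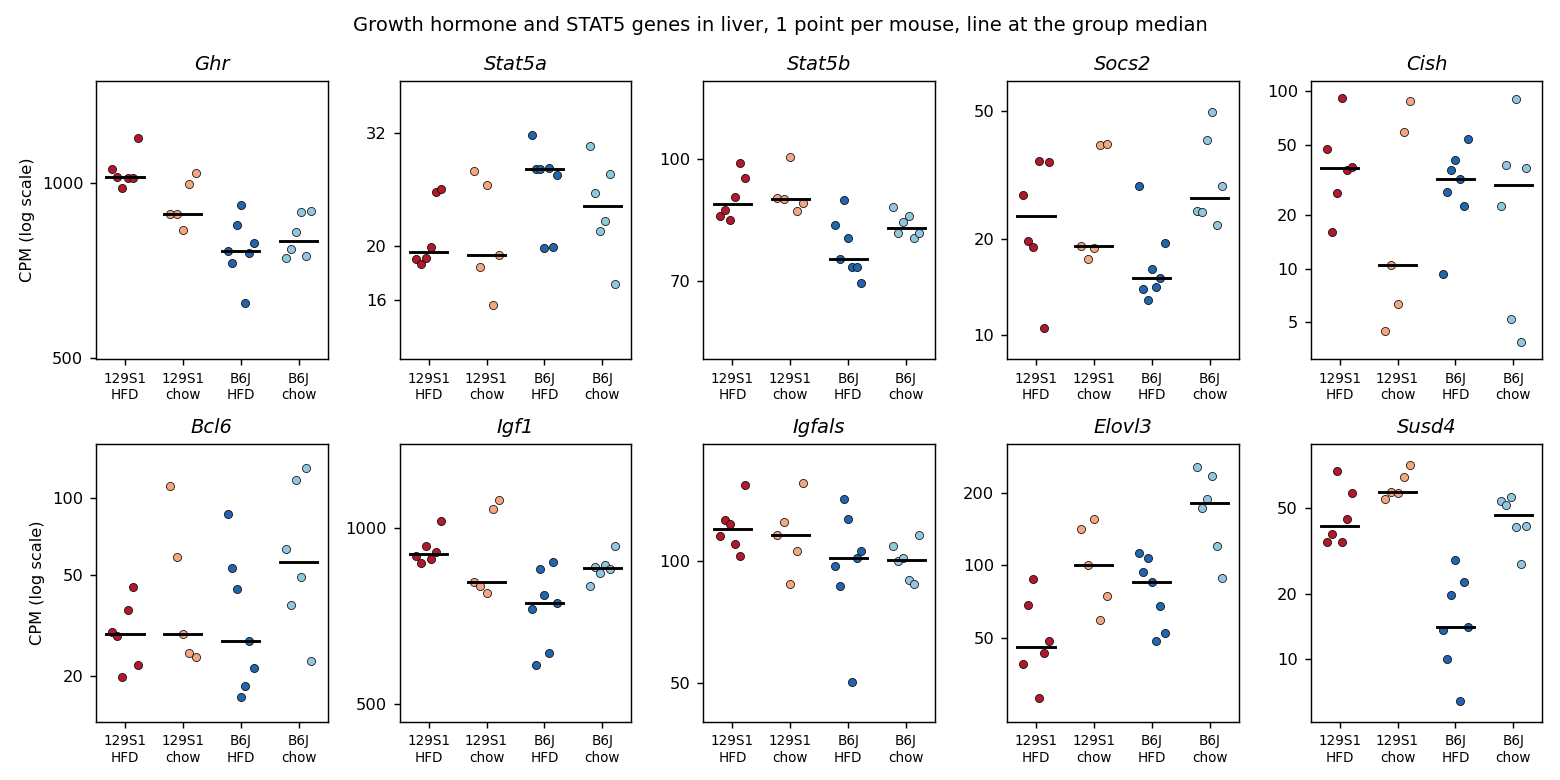
Levels in CPM (log axis) of the 10 genes in each mouse, with a line at the group median; 129S1 stands for 129S1/SvImJ, B6J for C57BL/6J and HFD for high-fat diet, and the axes of the panels differ. Ghr and Susd4 do not overlap between the strains on high-fat diet, whereas Cish spreads over most of its range within each chow group.

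The effect of the diet was asked within each strain, and it was called in C57BL/6J livers for 3 of the 10 genes and in 129S1/SvImJ livers for none. In C57BL/6J mice Susd4, Elovl3 and Socs2 were lower on high-fat diet, and none of the 10 was higher. Over all genes tested, 14.9% were called in that comparison, 7.66% higher and 7.20% lower, and 3.89% had ranges that did not overlap, which was so for 0 of the 10 genes. In 129S1/SvImJ mice edgeR called 0 of the 10 genes on high-fat diet against chow, where 10.4% of all genes were called, 5.41% higher and 5.01% lower; 2 of the 10, Ghr and Elovl3, had an unadjusted p under 0.05, DESeq2 called 1, Elovl3, and limma called 0. A gene was called where the Benjamini-Hochberg adjusted p of edgeR's quasi-likelihood test over all 14533 genes was under 0.05, and every adjusted p below is of that test unless another is named. The median log2 fold change of the 10 genes was -0.16 in C57BL/6J and -0.01 in 129S1/SvImJ mice, beside medians over all genes tested of 0.01 and -0.00395.

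The effect of strain, 129S1/SvImJ over C57BL/6J, was called for 4 of the 10 genes on high-fat diet, all higher in 129S1/SvImJ: Ghr, Stat5b, Igf1 and Susd4. Among all genes 37.0% were called in that comparison, 17.9% higher and 19.1% lower. On chow edgeR called 0 of the 10, against 25.0% of all genes, 12.6% higher and 12.5% lower; 3 of them, Ghr, Stat5b and Elovl3, had an unadjusted p under 0.05, and DESeq2 and limma called 0. In other edgeR fits 1 of the 10 was called on chow. Susd4 was higher in 129S1/SvImJ when only the groups compared were fitted (0.51, adjusted p = 0.0432). Elovl3 was lower with 1 mean per mouse identifier number (-0.89, adjusted p = 0.0129) and with replicate numbers as a block (-0.85, adjusted p = 0.0239). The fit with 1 mean per identifier number takes its error from the spread within numbers only. Its p is too small if mice that share a number are not independent. The main fit also treats all mice as independent, so the same limit holds for its SE and adjusted p. The median log2 fold change of the 10 genes was 0.29 on high-fat diet and 0.06 on chow, beside medians over all genes of 0.00455 and 0.01. The test of whether the diet effect differed between the strains called 0 of the 10 genes with edgeR, DESeq2 or limma, and 0.296% of all genes with edgeR. Of the 10, Ghr and Susd4 had an unadjusted p under 0.05 in it. The level of 7SK, a short nuclear RNA, varied between libraries. Within the 10 libraries with low 7SK, 2 or 3 per group, none of these 7 calls passed in edgeR, while within the 14 with high 7SK 4 of them passed, Susd4 in both comparisons, Ghr and Stat5b; every fold change kept its sign. The comparisons share groups, since the C57BL/6J livers on high-fat diet enter both the diet effect in that strain and the strain effect on that diet.

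**Figure D2:**
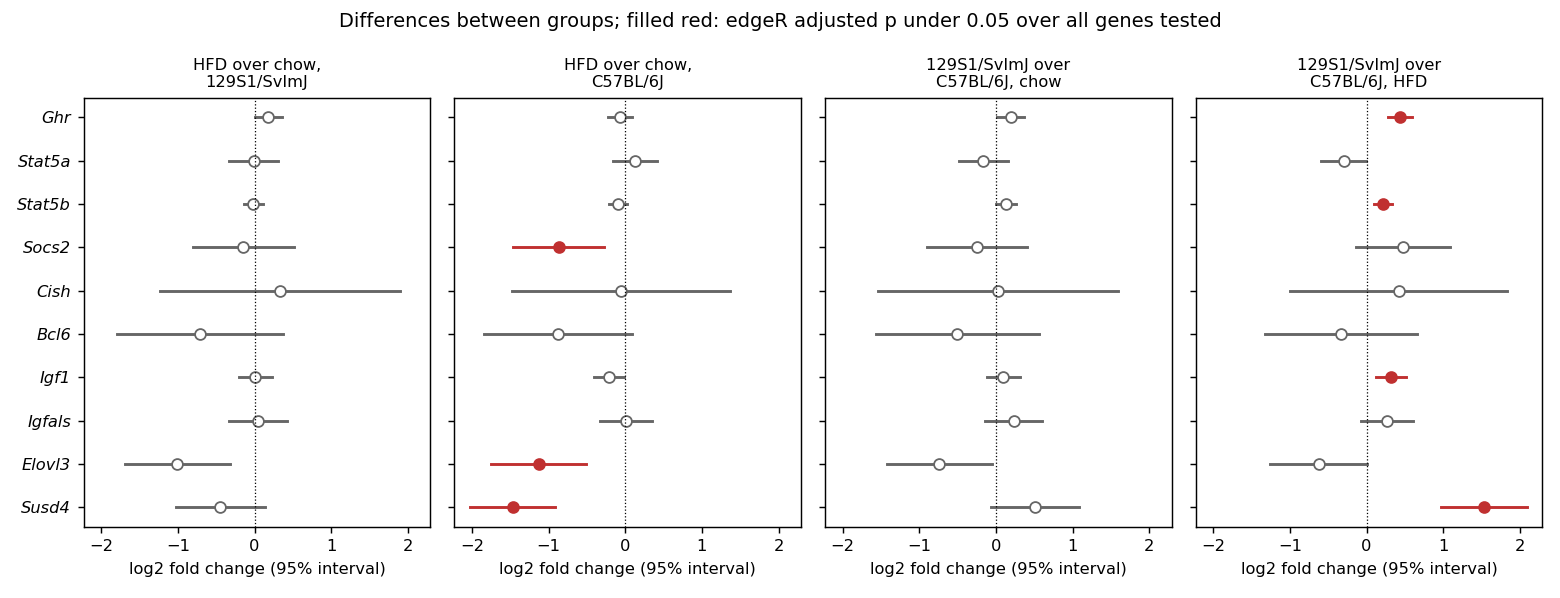
Log2 fold change with its 95% interval for the 10 genes in each of the 4 comparisons, high-fat diet over chow in 129S1/SvImJ and in C57BL/6J, and 129S1/SvImJ over C57BL/6J on chow and on high-fat diet; filled red points had an edgeR adjusted p under 0.05. Red points are Socs2, Elovl3 and Susd4 in the diet comparison of C57BL/6J, and Ghr, Stat5b, Igf1 and Susd4 in the strain comparison on high-fat diet.

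Ghr (ENSMUSG00000055737.12, chr15:3317760-3583492 in mm10, minus strand) encodes the growth hormone receptor, and it was higher in 129S1/SvImJ than in C57BL/6J livers on high-fat diet. Its lowest, median and highest levels were 978, 1022 and 1196 CPM in 129S1/SvImJ and 623, 764 and 916 CPM in C57BL/6J mice on that diet. No 129S1/SvImJ mouse fell within the C57BL/6J range, which was so for 15.1% of all genes in that comparison. This amounted to a log2 fold change of 0.44 ± 0.08 (SE; adjusted p = 8.59e-05), which lay between 0.39 and 0.48 without any 1 library.

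On chow the Ghr levels of 129S1/SvImJ mice were 885, 884, 831, 997 and 1040 CPM, against 744, 796 and 893 CPM as lowest, median and highest in C57BL/6J mice, and the ranges overlapped. Strain gave a log2 fold change of 0.19 ± 0.09 there, with an adjusted p of 0.105. High-fat diet over chow gave 0.18 ± 0.09 (adjusted p = 0.205) in 129S1/SvImJ and -0.07 ± 0.08 (adjusted p = 0.620) in C57BL/6J mice. The difference between these diet effects was 0.25 ± 0.12 with an adjusted p of 0.338, so the strain effect was not shown to depend on the diet.

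Stat5b (ENSMUSG00000020919.11, chr11:100780731-100850724, minus strand), the more abundant STAT5 gene of liver, followed with a small difference. On high-fat diet its lowest, median and highest levels were 83.6, 87.7 and 98.7 CPM in 129S1/SvImJ and 69.6, 74.5 and 88.7 CPM in C57BL/6J mice. The ranges overlapped at their edges, and the log2 fold change was 0.21 ± 0.06 (adjusted p = 0.00458). On chow it had 89.0, 88.8, 100.4, 85.9 and 87.8 CPM in 129S1/SvImJ mice, against 79.4, 81.7 and 86.8 CPM as lowest, median and highest in C57BL/6J mice, with a log2 fold change of 0.13 ± 0.06 (adjusted p = 0.128).

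Stat5a (ENSMUSG00000004043.14, chr11:100859351-100885169, plus strand) was called in no comparison. On high-fat diet it had 18.5, 19.5 and 25.4 CPM in 129S1/SvImJ and 19.8, 27.5 and 31.8 CPM in C57BL/6J mice as lowest, median and highest, a log2 fold change of -0.30 ± 0.14 (adjusted p = 0.0972; 0.0474 without replicate 4 of C57BL/6J on high-fat diet). Its fold change was on the other side of 0 from that of Stat5b in this comparison, with a 95% interval of -0.59 to -0.01 beside 0.10 to 0.33 for Stat5b. Its exons share 72 bases with Stat3 on the opposite strand, at a mean of 135 CPM for Stat3.

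A further list held 12 genes, those of growth hormone receptor signalling together with Prlr, the gene of a different receptor. Of these 11 were tested, among them the kinase gene Jak2, adaptors, phosphatases and SOCS genes. In each diet comparison 1 of the 11 fell and none rose, where 5.01% of all genes fell in 129S1/SvImJ and 7.20% in C57BL/6J mice. Prlr, the receptor of prolactin, fell in 129S1/SvImJ mice to 58.6, 77.3 and 118 CPM on high-fat diet (lowest, median, highest), against 135, 157 and 224 CPM on chow, a log2 fold change of -1.04 ± 0.20 (adjusted p = 0.00150). These ranges did not overlap, which was so for 7.73% of all genes in that comparison. Socs3, a feedback inhibitor of cytokine receptors, fell in C57BL/6J mice to 4.87, 5.99 and 9.95 CPM on high-fat diet, against 6.29, 11.01 and 29.6 CPM on chow, with a log2 fold change of -1.20 ± 0.35 (adjusted p = 0.0224). Its call held in 22 of 24 fits that each left out 1 library and in 6 of 12 other settings.

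Between the strains, Ptpn6, a phosphatase of blood cells, was lower in 129S1/SvImJ livers on high-fat diet (-0.45 ± 0.11) and on chow (-0.33 ± 0.12), and Prlr was higher on chow (0.87 ± 0.20, adjusted p = 0.00220). Beside these, 6 of 6 Kupffer cell markers were lower in 129S1/SvImJ livers on chow and 3 of 6 on high-fat diet, where 12.5% and 19.1% of all genes were lower. Without both libraries with fat-cell transcripts 4 of 6 were lower on each diet. All 6 were counted in every library, with summed levels of 50.1 to 138 CPM in 129S1/SvImJ and 145 to 244 CPM in C57BL/6J mice on chow. On high-fat diet the sums were 77.2 to 179 CPM in 129S1/SvImJ and 137 to 349 CPM in C57BL/6J mice. All 3 lymphocyte markers tested were also lower in 129S1/SvImJ livers on both diets. Without the fat-cell libraries 3 of 3 were lower on chow and 2 of 3 on high-fat diet. The 5 lymphocyte markers listed summed to at most 5.45 CPM in any library. The part of either marker list in the results was not tested. Jak2 was called in none of the 5 comparisons, with log2 fold changes between -0.06 and 0.16.

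Socs2 (ENSMUSG00000020027.18, chr10:95385362-95417180, minus strand), a STAT5 target whose loss makes mice overgrow, fell in C57BL/6J mice on high-fat diet, though this call was close to the threshold. The lowest, median and highest levels were 12.9, 15.1 and 29.2 CPM on high-fat diet and 22.1, 26.8 and 49.7 CPM on chow. The ranges overlapped through 1 mouse on high-fat diet at 29.2 CPM, and the other 6 were below every mouse on chow. Socs2 thus had a log2 fold change of -0.87 ± 0.29 (adjusted p = 0.0458), a fold of 0.547. The call ended in 11 of 24 fits that each left out 1 library, with adjusted p between 0.0186 and 0.119, and without both libraries with fat-cell transcripts (-0.82, adjusted p = 0.0939).

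In 129S1/SvImJ mice Socs2 ranged from 10.5 to 34.9 CPM on high-fat diet with a median of 23.5, and it had 19.0, 17.3, 18.8, 39.1 and 39.5 CPM on chow. The log2 fold change of the diet was -0.15 ± 0.32 (adjusted p = 0.830). The difference between the diet effects of the strains was 0.72 ± 0.43 with an adjusted p of 0.465, so the fall was not shown to be particular to C57BL/6J.

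Cish (ENSMUSG00000032578.7, chr9:107296026-107302784, plus strand), the STAT5 target whose start carries the paired motif printed above, had the widest spread between mice of a group. In C57BL/6J mice its lowest, median and highest levels were 9.37, 32.1 and 53.8 CPM on high-fat diet and 3.88, 29.7 and 91.1 CPM on chow. In 129S1/SvImJ mice they were 16.1, 36.8 and 91.5 CPM on high-fat diet, and the 5 mice on chow had 4.45, 10.6, 6.34, 59.4 and 88.7 CPM. Within each group on chow, single mice of one strain and diet thus differed 23.5-fold in C57BL/6J and 19.9-fold in 129S1/SvImJ mice.

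Against that spread, no group differed detectably in Cish. The log2 fold changes of the diet were 0.33 ± 0.75 in 129S1/SvImJ and -0.06 ± 0.68 in C57BL/6J mice, with 95% intervals of -1.23 to 1.89 and -1.48 to 1.37. These intervals include changes of more than 1 log2 unit in both directions. Cish shares 479 and 261 exonic bases with a pair of genes on the opposite strand, whose mean levels were 0.008 and 0.310 CPM.

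Bcl6 (ENSMUSG00000022508.5, chr16:23965052-23988852, minus strand), the repressor, was the second most variable. It had 19.8, 29.2 and 44.7 CPM in 129S1/SvImJ mice on high-fat diet as lowest, median and highest, and 112, 58.6, 29.1, 24.5 and 23.8 CPM on chow. In C57BL/6J mice it had 16.5, 27.4 and 86.8 CPM on high-fat diet and 22.7, 56.0 and 131 CPM on chow. The diet estimate was -0.71 ± 0.52 in 129S1/SvImJ and -0.88 ± 0.46 in C57BL/6J mice, with adjusted p of 0.430 and 0.222, and neither passed the test.

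In the 129S1/SvImJ mice on chow, the levels of several of these genes divided by the number in the mouse identifier, which the labels do not explain. Replicates 1 to 3 carry the lower number and had Cish between 4.45 and 10.6 CPM, and replicates 4 and 5 carry the higher number and had 59.4 and 88.7 CPM. Socs2 was 17.3 to 19.0 CPM in the mice with the lower number and 39.1 and 39.5 CPM in those with the higher. Igf1 was 774 to 809 CPM against 1078 and 1116 CPM, Ghr was 831 to 885 CPM against 997 and 1040 CPM, and Bcl6 was 29.1 to 112 CPM against 24.5 and 23.8 CPM, in the same order. Elovl3 was 99.97 to 155 CPM against 59.2 and 74.2 CPM, and Susd4 55.3 to 59.8 CPM against 69.8 and 79.9 CPM. Stat5b was 88.8 to 100.4 CPM against 85.9 and 87.8 CPM. With 3 and 2 mice this is a description. The share of all genes that divided in this way was not counted, so it is not shown to be particular to these genes. The ranges of Cish overlapped between the identifier numbers in each of the other 3 groups. Elovl3 did divide in C57BL/6J mice on high-fat diet, at 84.8 to 112 CPM with the lower number and 48.6 to 67.6 CPM with the higher. Outside 129S1/SvImJ on chow, Susd4 (C57BL/6J on chow), Stat5b (both strains on high-fat diet) and Stat5a (129S1/SvImJ on high-fat diet) also divided.

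**Figure D3:**
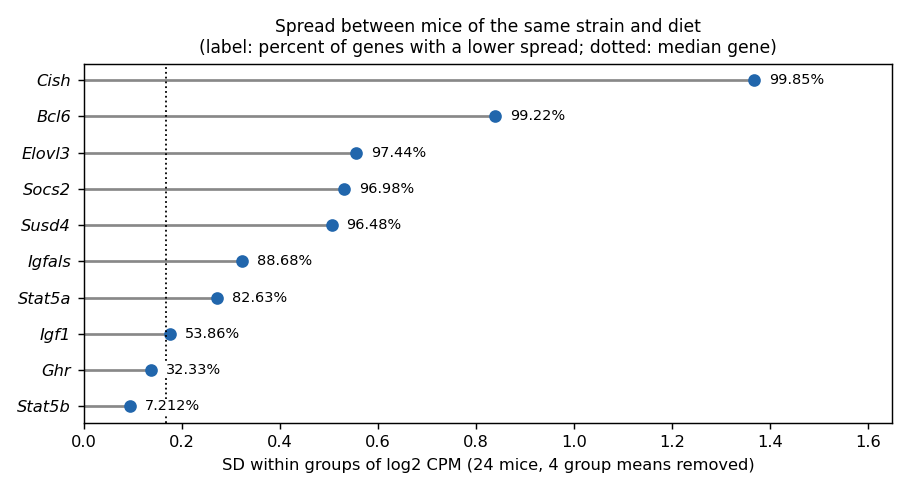
Standard deviation of log2 CPM within groups for each of the 10 genes, pooled over 24 mice after removal of the 4 group means; the label gives the percent of 10163 genes with a lower spread and the dotted line the median gene. Cish lies above 99.85% of genes and Stat5b above 7.212%.

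The feedback and repressor genes spread more between mice of the same strain and diet than the receptor and Stat5b did. The pooled standard deviation of log2 CPM was 1.37 for Cish and 0.84 for Bcl6, above 99.85% and 99.22% of the 10163 genes with a mean of at least 5 CPM. It was 0.56 for Elovl3, 0.53 for Socs2 and 0.51 for Susd4, each above at least 96.48% of genes. The receptor and its main transducer were at the other end, with 0.14 for Ghr and 0.09 for Stat5b, above 32.33% and 7.212% of genes, beside 0.17 for the median gene. Igfals (0.32), Stat5a (0.27) and Igf1 (0.18) lay between.

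Igf1 (ENSMUSG00000020053.18, chr10:87858265-87937042, plus strand), the gene of insulin-like growth factor 1, was higher in 129S1/SvImJ than in C57BL/6J livers on high-fat diet. Its lowest, median and highest levels were 872, 902 and 1029 CPM in 129S1/SvImJ and 583, 745 and 875 CPM in C57BL/6J mice. Only 1 C57BL/6J mouse, at 875 CPM, reached the 129S1/SvImJ range. Igf1 had a log2 fold change of 0.32 ± 0.10 (adjusted p = 0.00997), and the adjusted p was at most 0.0295 without any 1 library.

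On chow Igf1 had 809, 797, 774, 1078 and 1116 CPM in 129S1/SvImJ mice and 797, 855 and 931 CPM as lowest, median and highest in C57BL/6J mice, with a log2 fold change of 0.10 ± 0.10 (adjusted p = 0.559). The diet estimate was 0.01 ± 0.10 in 129S1/SvImJ mice, and in C57BL/6J mice it was -0.22 ± 0.10 with an adjusted p of 0.130. Neither diet effect was called, and the 95% interval in 129S1/SvImJ mice was -0.21 to 0.22. Igf1os, a gene on the opposite strand with no shared exonic base, had a mean of 1.24 CPM.

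Igfals (ENSMUSG00000046070.8 in the files, chr17:24865997-24882010, plus strand), the acid-labile subunit that keeps IGF1 in the circulation, was called in no comparison. It had 103, 120 and 154 CPM in 129S1/SvImJ and 50.2, 102 and 142 CPM in C57BL/6J mice on high-fat diet, and 88.0 to 156 and 87.6 to 116 CPM in the same strains on chow. The strain estimates were 0.26 ± 0.17 on high-fat diet and 0.23 ± 0.18 on chow, with adjusted p of 0.223 and 0.392. The lowest mouse of all 24, at 50.2 CPM, was replicate 5 of C57BL/6J on high-fat diet, which is one of the libraries with fat-cell transcripts.

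All 7 IGF binding protein genes listed were tested. Between the strains 2 rose and none fell, on chow and on high-fat diet alike, and edgeR, DESeq2 and limma called 0 in either diet comparison. Before adjustment, edgeR's p was under 0.05 for Igfbp1 in 129S1/SvImJ mice (log2 fold change -1.13) and for Igfbp1 (-1.02), Igfbp2 (-0.48) and Igfbp3 (0.40) in C57BL/6J mice. Igfbp3, the main carrier of IGF1 in blood, had 40.2, 43.4 and 50.8 CPM in 129S1/SvImJ and 14.9, 27.5 and 31.9 CPM in C57BL/6J mice when fed high-fat diet. In the chow-fed groups it had 30.8, 52.4, 41.7, 39.0 and 48.4 CPM in 129S1/SvImJ mice and 13.8 to 21.9 CPM in C57BL/6J mice, so the strains did not overlap on either diet.

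The log2 fold change of Igfbp3 was 0.87 ± 0.15 on high-fat diet (adjusted p = 5.32e-05) and 1.19 ± 0.16 on chow (adjusted p = 5.52e-06). Both calls held in all 24 fits that each left out 1 library. Igfbp4, a further IGF carrier, was higher by 0.35 ± 0.10 on high-fat diet and 0.36 ± 0.11 on chow. In liver Igfbp3 is made largely by cells other than hepatocytes. Of 4 endothelial markers, 1 was higher and 2 lower in 129S1/SvImJ livers on each diet, beside the shares of all genes given above. Stab2 was higher (0.58 on high-fat diet and 0.31 on chow), Clec4g was lower (-0.31 and -0.48), and so was Pecam1 (-0.29, adjusted p = 0.0339, and -0.39, adjusted p = 0.0157). Without both libraries with fat-cell transcripts 1 was higher and 1 lower on each diet, and the part of these markers in the result of Igfbp3 was not tested.

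Elovl3 (ENSMUSG00000038754.4 in the files, chr19:46131897-46135694, plus strand) encodes an elongase of very long fatty acids that is higher in male than in female mouse liver. It fell in C57BL/6J mice to 48.6, 84.8 and 112 CPM on high-fat diet as lowest, median and highest, against 88.5, 180 and 255 CPM on chow. The ranges overlapped, with 3 of 7 mice on high-fat diet above the lowest mouse on chow. Elovl3 had a log2 fold change of -1.13 ± 0.30 (adjusted p = 0.0138), and the adjusted p was at most 0.0377 without any 1 library.

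Elovl3 in 129S1/SvImJ mice had 28.0, 45.8 and 87.7 CPM on high-fat diet and 141, 99.97, 155, 59.2 and 74.2 CPM on chow. The log2 fold change of -1.01 ± 0.33 had an adjusted p of 0.0534 and was not called, while DESeq2 gave an adjusted p of 0.0206. It was called in 5 of 24 fits that each left out 1 library. The diet effects of the strains differed by 0.12 ± 0.44 (adjusted p = 0.943), with a 95% interval of -0.81 to 1.04, so the call in C57BL/6J mice alone is no sign of a strain difference.

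Susd4 (ENSMUSG00000038576.15, chr1:182763860-182896591, plus strand), which encodes a membrane protein that inhibits complement and is also higher in male mouse liver, had the largest fall of the 10 genes in C57BL/6J mice on high-fat diet. It had 6.40, 14.1 and 28.9 CPM on high-fat diet and 27.5, 46.8 and 56.3 CPM on chow as lowest, median and highest. Only the highest mouse on high-fat diet reached the lowest mouse on chow. Susd4 had a log2 fold change of -1.47 ± 0.27 (adjusted p = 0.000847), a fold of 0.362, and it lay between -1.67 and -1.32 without any 1 library.

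Susd4 in 129S1/SvImJ mice had 35.0, 41.4 and 74.4 CPM on high-fat diet and 55.3, 59.8, 58.8, 69.8 and 79.9 CPM on chow, a log2 fold change of -0.45 ± 0.28 (adjusted p = 0.345). The strains did not overlap on high-fat diet, where the lowest 129S1/SvImJ mouse had 35.0 CPM and the highest C57BL/6J mouse 28.9 CPM. The strain effect was 1.53 ± 0.27 on high-fat diet (adjusted p = 0.000114), a fold of 2.89, and 0.51 ± 0.28 on chow (adjusted p = 0.199). The difference between these strain effects, 1.02 ± 0.39, had an unadjusted p of 0.0153 and an adjusted p of 0.226, and was not called.

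Beside the falls in C57BL/6J mice, 4 of 5 hepatocyte markers were also lower on high-fat diet in that strain: Alb (-0.43), Hnf4a (-0.53), Cps1 (-0.65) and Apoa1 (-0.37). Of all genes 7.20% were lower there, and without both libraries with fat-cell transcripts 3 of 5 markers were. The calls of Cps1 and Apoa1 held in 21 and 5 of 24 fits without 1 library. The summed marker level was 55739 to 74919 CPM on high-fat diet and 82140 to 88480 CPM on chow, without overlap. Most of this sum was Alb alone, at 44580 to 57529 CPM on high-fat diet and 62985 to 70609 CPM on chow. In 129S1/SvImJ mice 1 of 5 was lower, Apoa1, beside 5.01% of all genes. The sums there were 52879 to 75921 CPM on high-fat diet and 69444 to 87766 CPM on chow. The part of these markers in the falls of Susd4, Elovl3 and Socs2 was not tested.

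The calls of the other sex-biased genes did not run in one direction. Most male-biased genes did have lower group means on high-fat diet in C57BL/6J mice, many of them without a call. Of 16 genes with higher expression in male mouse liver, all tested, 1 rose and 3 fell in C57BL/6J mice on high-fat diet (median log2 fold change -0.47). In 129S1/SvImJ mice 2 rose and none fell (median 0.27). Over all genes 7.66% rose and 7.20% fell in C57BL/6J mice, and 5.41% and 5.01% in 129S1/SvImJ mice. Cyp7b1, a steroid and oxysterol hydroxylase, fell in C57BL/6J mice to 31.8, 168 and 244 CPM on high-fat diet, against 198, 339 and 591 CPM on chow (-1.30 ± 0.37, adjusted p = 0.0224, called in 22 of 24 fits without 1 library). Ugt2b38 (-1.14) and Gstp1 (-0.91) fell as well, while Nat8f5 rose by 0.92 and held in 20 of 24 such fits.

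Cyp4a12b, a fatty acid hydroxylase gene, rose in 129S1/SvImJ mice to 84.8, 111 and 170 CPM on high-fat diet, against 26.7 to 62.7 CPM on chow. The log2 fold change was 1.46 ± 0.26 (adjusted p = 0.000858), and the ranges did not overlap. It has a near-identical neighbour in Cyp4a12a, so its reads may be shared with that gene. The second rise, of Ugt2b1 (0.71, adjusted p = 0.0454), held in 11 of 24 fits without 1 library.

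Of 23 genes with higher expression in female mouse liver, 10 had enough counts to be tested. In C57BL/6J mice 2 rose and 3 fell on high-fat diet (median log2 fold change 0.23). In 129S1/SvImJ mice 1 fell and none rose (median 0.07), beside the shares of all genes given above. Nipal1, a putative magnesium transporter gene, fell in both strains, with log2 fold changes of -2.01 in C57BL/6J (adjusted p = 0.00593) and -2.77 in 129S1/SvImJ mice (adjusted p = 0.00979), at group means of at most 12.4 CPM. The other falls in C57BL/6J mice were of the cytochrome genes Cyp2c69 (-2.15) and Cyp2c40 (-1.85), which belong to a family of close copies. Both had low levels. The group means were 0.482 CPM on high-fat diet against 1.99 CPM on chow for Cyp2c69, and 1.32 against 4.52 CPM for Cyp2c40. The rises in C57BL/6J mice were of Acot3 (1.64, adjusted p = 0.0367), a peroxisomal acyl-CoA thioesterase gene, and Ntrk2 (2.05, adjusted p = 0.0451), a neurotrophin receptor gene named after its values were seen. They were called in 15 and 11 of 24 fits without 1 library, and without both libraries with fat-cell transcripts none rose and 3 fell.

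Between the strains, 5 male-biased genes were higher and 4 lower in 129S1/SvImJ livers on high-fat diet, beside 17.9% and 19.1% of all genes. On chow 1 was higher and 7 lower, beside 12.6% and 12.5%. Cyp4a12a was higher by 1.20 ± 0.10 on high-fat diet and 0.91 ± 0.10 on chow, with 483 to 649 CPM in 129S1/SvImJ and 206 to 257 CPM in C57BL/6J mice on high-fat diet. Ugt2b38 had at most 0.331 CPM in 129S1/SvImJ mice on either diet and at least 4.26 CPM in every C57BL/6J mouse. Serpina1e, a serine protease inhibitor gene, had at most 9.83 CPM in 129S1/SvImJ mice on either diet and at least 44.1 CPM in every C57BL/6J mouse. Mup20, a urinary protein gene, had 139 to 304 CPM in 129S1/SvImJ and 1485 to 2725 CPM in C57BL/6J mice on chow, a log2 fold change of -3.25 ± 0.31. Nat8f5 was lower by 3.73 on the log2 scale on high-fat diet, with 0.386 to 1.56 CPM in 129S1/SvImJ and 5.90 to 18.9 CPM in C57BL/6J mice. These genes belong to families of close copies, so their reads may be shared with other members. Reads were aligned to mm10, which is C57BL/6J sequence, so 129S1/SvImJ reads that differ from it may also have been lost. This limit holds for every strain comparison here, and its size was not tested.

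Of the 10 female-biased genes tested, 1 was higher and 5 lower on high-fat diet, beside 17.9% and 19.1% of all genes. On chow 1 was higher and 3 lower, beside 12.6% and 12.5%. Cyp2a4, a close copy of another cytochrome gene, was the higher one on both diets, with 26.3 to 91.6 CPM in 129S1/SvImJ and at most 0.423 CPM in C57BL/6J mice on chow. Cyp2c40 was lower on both diets, at no more than 0.248 CPM in any 129S1/SvImJ mouse. Cyp2c69 and Atp6v0d2 (-0.99) were lower on chow, the second in 9 of 24 fits without 1 library. Prom1 (-2.11) and Nipal1 (-2.12) were lower on high-fat diet.

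Across mice, several of the 10 genes varied together after removal of the mean of each group. Of 45 pairs, 5 had an adjusted p under 0.05 in a test with 100000 permutations within groups. Ghr and Igf1 had Pearson's r of 0.72 (permutation p = 0.0008, adjusted p = 0.012) and Spearman's rho of 0.74 (p = 0.00033), and r was 0.72 without the 2 mice farthest from the median of Ghr (adjusted p = 0.0135). Within groups r was 0.78 in 129S1/SvImJ mice on high-fat diet, 0.63 in C57BL/6J mice on high-fat diet and 0.72 in C57BL/6J mice on chow.

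Igfals rose and fell with both Ghr and Susd4 across mice, with r of 0.76 and rho of 0.61 for Ghr (permutation p = 0.00033) and r of 0.73 and rho of 0.69 for Susd4 (p = 0.00055), both at an adjusted p of 0.012. Without the 2 farthest mice r was 0.62 and 0.57, each at an adjusted p of 0.0776, so these relations rest in part on those mice. Igf1 and Susd4 had r of 0.61 and rho of 0.69 (permutation p = 0.00207, adjusted p = 0.0233), and r of 0.57 without the 2 farthest mice (adjusted p = 0.0860), with r within groups between -0.33 and 0.83.

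Cish and Bcl6 were the only pair of the 5 with a negative relation. Pearson's r was -0.65 (permutation p = 0.00344, adjusted p = 0.0310) and Spearman's rho -0.65 (p = 0.00324). The 4 mice with the lowest Cish relative to their group, at 3.88 and 5.26 CPM in C57BL/6J on chow, 4.45 CPM in 129S1/SvImJ on chow and 9.37 CPM in C57BL/6J on high-fat diet, had 131, 118, 112 and 86.8 CPM of Bcl6 in the same order, each the highest or second highest of its group. Without the 2 farthest mice r was -0.57 (adjusted p = 0.110). Within groups r was -0.76 in C57BL/6J mice on high-fat diet and -0.82 in those on chow, but 0.38 in 129S1/SvImJ mice on high-fat diet. Without both libraries with fat-cell transcripts, none of the 5 pairs passed, all at an adjusted p of 0.0770, with r between -0.61 and 0.66. With the means of the mouse identifier numbers removed as well, Ghr with Igfals passed (adjusted p = 0.0371) and the other 4 did not: the adjusted p was 0.0823 for Ghr with Igf1, 0.0519 for Igfals with Susd4 and for Igf1 with Susd4, and 0.181 for Cish with Bcl6, at r of 0.71, 0.72, 0.82 and -0.63.

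**Figure D4:**
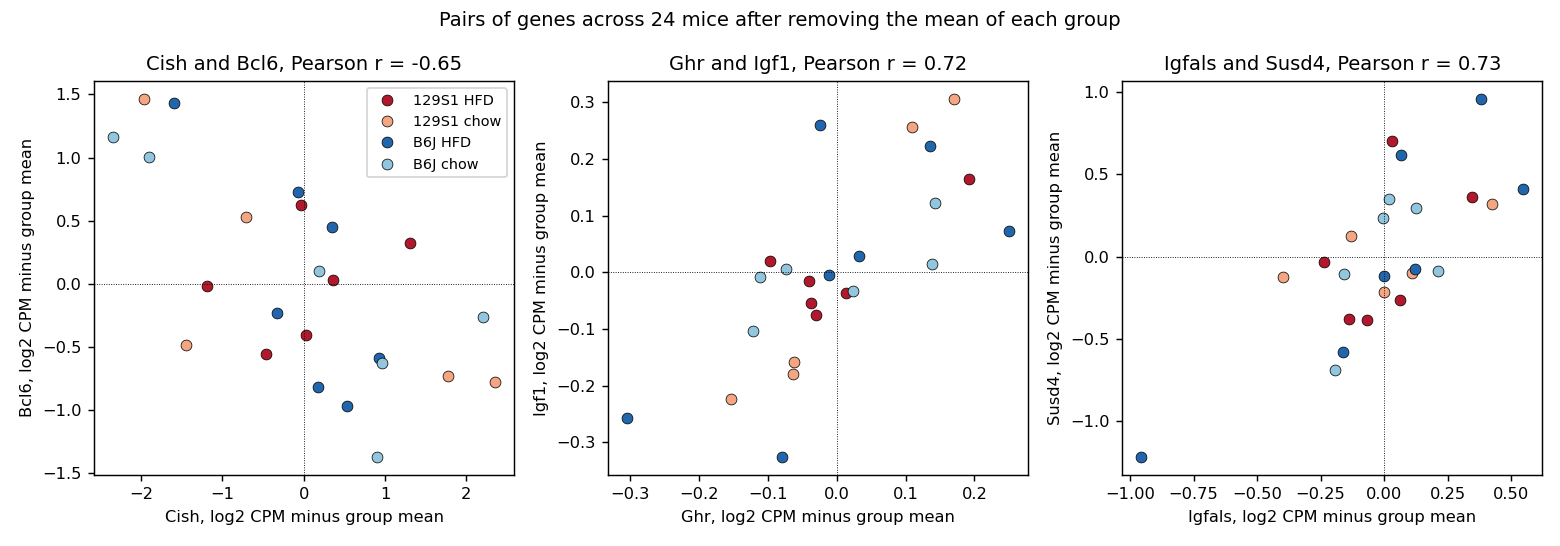
Log2 CPM minus the group mean for 3 pairs of genes, 1 point per mouse, coloured by group (129S1 for 129S1/SvImJ, B6J for C57BL/6J, HFD for high-fat diet). Cish and Bcl6 run against each other (r = -0.65), Ghr and Igf1 together (r = 0.72), and the lowest point of Igfals and Susd4 (r = 0.73) is replicate 5 of C57BL/6J on high-fat diet.

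The genes whose levels followed each member most closely are given as a description over 24 mice and 10160 genes, with group means removed. For Cish they were Foxq1 (r = 0.92), Myc (0.89) and Foxa2 (0.88), all transcription factor genes. For Bcl6 they were Ppnr (0.85), Gse1 (0.78) and Prox1 (0.78), and for Socs2 B4galt1 (0.77), Zcchc2 (0.71) and Mbnl2 (0.70). For Susd4 they were Aadat (0.89), Cyp7b1 (0.89) and Cyp1a2 (0.87), of which Cyp7b1 is the male-biased gene described above. For Elovl3 they were Dtx4 (0.87), Pla2g12b (0.85) and Pnkd (0.82), and for Igf1 Napa (0.84), Zcchc24 (0.83) and Adarb1 (0.83). These values share library depth and the group structure, and no test was made of them.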

How the data were processed

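Liver RNA of 24 mice was analysed from the deposited table of raw counts per gene, which matched the 24 deposited per-library count files exactly. Per the submitters' processing notes the tools were Trimmomatic 0.36, Bowtie2 2.2.3, STAR 2.5.4b and DESeq2 1.26.0 with build mm10; the sources used here give neither the annotation release nor the strand setting of counting. The authors also deposited variance-stabilized values on a log2 scale, used only in an alternative. Of 53677 identifiers, 53582 matched GENCODE M21, and the other 95 held 0.00747% of counts.

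Counts were fitted over all 24 libraries with edgeR 4.0.16 (filterByExpr, TMM, robust quasi-likelihood test, 1 mean per group) in R 4.3.3, and p-values were adjusted over 14533 genes in each of 5 contrasts, with calls at 0.05. SE is the log2 fold change over the root of F. CPM used TMM library sizes. Pairs of genes were tested in Python 3.11.15 with 100000 permutations within groups. The fit was tested on simulated data, but the outcome is not given here, so it lends the results no weight. Replicates are mice, and the 61 pairs within groups differed beyond counting noise (chi-square per degree of freedom 5.77 to 80.5). Alternatives were DESeq2 1.42.0, limma 3.58.1 on the deposited log2 values, other size factors, no filter, only the groups compared, a replicate block, 1 mean per mouse identifier number, each library left out, both libraries with fat-cell transcripts left out, and the level of the 7SK RNA, a short nuclear RNA that varied between libraries. Splitting at the widest gap in 7SK left 2 libraries in the high class, so fits within 10 low and 14 high libraries, a continuous 7SK term and removal of identifier means from the pairs were added after seeing the data.

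The 10 genes and the other gene lists were chosen with earlier results of these data known. All 10 are named whatever their p. In every other list the genes open to naming were up to 4 called genes with the smallest p in a comparison; not all are described, and Jak2, Igfbp1, Igfbp2 and Ntrk2 were named outside this rule, after their values were seen. The 3 genes most like each of 6 members are also named. Igfals and Elovl3 carry an older identifier version in the files. The strain results of 1 gene of the receptor signalling list are not reported here.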

Additional observations from a re-analysis of the deposited data

Results flagged for a closer look

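In 3 of 40 sets of values (10 genes in 4 groups), 1 mouse stood apart from the rest of its group by a gap that was a large share of the whole range, and chance alone marks about 1 set in 20. Ghr was 1196 CPM in replicate 6 of 129S1/SvImJ on high-fat diet, the highest of 6 mice. Stat5b was 100.4 CPM in replicate 3 of 129S1/SvImJ on chow, the highest of 5. Socs2 was 29.24 CPM in replicate 1 of C57BL/6J on high-fat diet, the highest of 7 and the only one of them within the range of the mice on chow. The call of Ghr between the strains on high-fat diet held in all 24 fits that each left out 1 library, with adjusted p of at most 0.000429.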

How the results depend on the processing

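Left-out libraries moved the number of genes called for diet in 129S1/SvImJ between 937 and 1671 (1514 with all), for diet in C57BL/6J between 1627 and 2502 (2159), for strain on chow between 3153 and 3814 (3636), for strain on high-fat diet between 4831 and 5554 (5375), and for the difference of diet effects between 5 (without replicate 1 of 129S1/SvImJ on chow) and 170 (without replicate 4 of C57BL/6J on high-fat diet), against 43. That last count was 297 with DESeq2, 170 with a 7SK class term, 121 with a continuous 7SK term, 2 without the fat-cell libraries, and 1 and 0 within low and high 7SK; 0 of the 10 genes was called in any of these. Within low and high 7SK, with fewer samples, the counts were 305 and 283 for diet in 129S1/SvImJ, 312 and 784 for diet in C57BL/6J, 2008 and 1338 for strain on chow, and 1549 within low 7SK for strain on high-fat diet. With the replicate block the count of the difference was 17. Same-numbered libraries of different groups correlated at a median of 0.061 (33 pairs, -0.27 to 0.44), against -0.00886 (182 pairs, -0.36 to 0.41) for other numbers. Of 24 libraries, 9 correlated best with their own number. Whether the numbers mark something shared between groups was not tested. Under the block the call of Socs2, diet in C57BL/6J, ended (adjusted p = 0.06475) and Elovl3, diet in 129S1/SvImJ, was called (0.0400), as was Elovl3 between strains on both diets; the block changed no other call of the 10 genes.

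Of the 10 genes, 3 were lower for diet in C57BL/6J; 2 were with no filter, limma, the 7SK class term, the block or the fat-cell libraries left out, Socs2 being lost each time, 1 within high 7SK (Susd4, -1.61) and 0 within low 7SK, where Susd4 stood at -1.18 and Elovl3 at -1.02. The 4 strain calls on high-fat diet stood in all settings but high 7SK, where Igf1 was lost (0.28), and low 7SK (0 called; Ghr 0.27, Stat5b 0.13, Igf1 0.40, Susd4 1.51). No value changed sign past the threshold. Of 45 gene pairs, 5 passed, 0 without the fat-cell libraries, 2 with identifier means removed (1 of the 5, Ghr with Igfals, and Igf1 with Igfals at an adjusted p of 0.0225) and 1 without the 2 farthest mice. The cause of these changes was not tested, and group sizes of 5 to 7 limit what the intervals of Cish and Bcl6 can show.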
